A study of Mus musculus with 8 samples.

Results

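The killer cell lectin-like receptor genes described here are 10 genes, Klrk1, Klrc1, Klrc2, Klrd1, Klre1, Klrb1b, Klrb1c, Klrg1, Klra2 and Klra4. The 10 were picked by gene symbol, with earlier results of these data known, from the 30 genes with a Klr symbol among 49212 genes counted. They were read in RNA-seq libraries of CD44+ regulatory T cells (effector Treg or eTreg cells), sorted as CD45+CD44+YFP+CD4+CD3+ cells from B16-OVA tumors (TIL eTreg cells) and from spleens, where CD4+ cells were enriched on beads before the sort. The KO mice were Prdm1fl/flFoxP3YFP-Cre and the WT mice FoxP3YFP-Cre, all C57BL/6, of both sexes and 5 to 10 weeks old, with 2 libraries for each of the 4 groups KO TIL, WT TIL, KO spleen and WT spleen. Every mouse received B16-OVA, a melanoma line that expresses ovalbumin, under the skin, and NP-OVA in complete adjuvant at day 0 and in incomplete adjuvant at day 7, and tumors measured at most 1.5 cm3. Cre is expressed from Foxp3, so Prdm1, which encodes Blimp1, was deleted in cells that had expressed Foxp3, and the WT mice carried the same YFP-Cre. Whether a library came from 1 mouse or from pooled mice is not stated, so the p-values measure only the spread between these libraries.

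Killer cell lectin-like receptors are C-type lectin-like membrane proteins known from NK cells and from subsets of T cells. Klrk1 encodes NKG2D, an activating receptor that signals through the adaptor DAP10 (Hcst). Klrd1 encodes CD94, which pairs with the inhibitory NKG2A (Klrc1) or the activating NKG2C (Klrc2) to read the non-classical MHC molecule encoded by H2-T23, and Klre1 encodes a partner chain of the KLRI receptors. Klrb1b and Klrb1c encode NKR-P1B, an inhibitory receptor for the Clec2d product, and NK1.1, an activating receptor that marks NK cells in C57BL/6 mice. Klra2 and Klra4 belong to the Ly49 receptors, Klra2 being inhibitory and known from myeloid cells and Klra4 activating through DAP12 (Tyrobp). Klrg1 encodes an inhibitory receptor for cadherins and is a common marker of effector Treg cells and of terminally differentiated effector CD8 T cells.

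All 10 genes lie on chromosome 6 (GRCm38). Klrg1 stands alone at chr6:122270596-122282882, and the other 9 lie between Klrb1c, at chr6:128778485-128789215, and Klra2, at chr6:131219223-131247362. Because the NKG2 genes are close copies, reads can be split between them. Over the longest coding sequence of each gene in GENCODE M21, Klrc1 and Klrc2 matched at 83.1% of 717 aligned bases, and Klrc2 and its neighbour Klrc3 at 94.9% of 666. The start of the coding sequence, which encodes the cytoplasmic part where the inhibitory and activating receptors differ, is shown from the start codon. Capitals in Klrc2 and Klrc3 mark bases that differ from the aligned base of Klrc1 (30 and 29 bases), and unaligned bases of Klrc1 were skipped.
Klrc1: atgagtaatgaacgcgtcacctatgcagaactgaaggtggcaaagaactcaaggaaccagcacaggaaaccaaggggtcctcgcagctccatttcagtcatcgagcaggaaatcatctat
Klrc2: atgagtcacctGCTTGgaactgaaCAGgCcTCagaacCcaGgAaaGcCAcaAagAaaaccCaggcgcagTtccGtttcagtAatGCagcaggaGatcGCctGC
Klrc3: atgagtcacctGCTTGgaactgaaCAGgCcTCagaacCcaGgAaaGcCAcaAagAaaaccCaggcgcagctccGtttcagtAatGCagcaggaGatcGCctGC
Of the windows of 150 nt, the read length, in the transcripts of Klrc1, 4.32% occurred in a transcript of another gene, and 2.48% did for Klrc2. The share was 19.4% for Klrb1b and 8.73% for Klrb1c, each time with Gm44511, whose exons on the same strand cover 599 and 413 bases of theirs and which had between 0 and 3 counts per library. The other 6 genes had no such window. The counts of Klrc1, Klrc2, Klrb1b and Klrb1c are therefore less certain than the rest.

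RefSeq promoter sequences (GRCm38.p6, from 250 bases before to 50 after a start site) were held for 8 of the 10 genes, with no entry for Klrg1 and Klrd1. Those of Klrb1b and Klrc1 are shown because these genes were higher in KO libraries of both tissues, and that of Klrk1 because this gene lay apart in tumor and overlapped in spleen. The letters GNGAAAG, the core of the Blimp1 motif, were searched on both strands and are in capitals, and AGGTGT, the core of the T-box motif, was searched likewise.
Klrb1b, chr6:128826259-128826558, minus strand: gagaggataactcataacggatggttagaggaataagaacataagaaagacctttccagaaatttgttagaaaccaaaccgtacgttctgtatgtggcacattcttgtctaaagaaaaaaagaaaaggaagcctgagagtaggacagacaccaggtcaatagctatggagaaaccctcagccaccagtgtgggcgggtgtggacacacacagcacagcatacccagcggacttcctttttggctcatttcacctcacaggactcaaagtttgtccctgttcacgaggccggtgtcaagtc
Klrc1, chr6:129678924-129679223, minus strand: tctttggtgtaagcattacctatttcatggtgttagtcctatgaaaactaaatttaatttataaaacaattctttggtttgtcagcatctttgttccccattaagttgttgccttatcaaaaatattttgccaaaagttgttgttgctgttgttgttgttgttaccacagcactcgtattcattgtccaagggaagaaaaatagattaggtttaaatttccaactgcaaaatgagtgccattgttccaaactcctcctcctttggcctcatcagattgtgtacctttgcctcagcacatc
Klrk1, chr6:129623815-129624114, minus strand: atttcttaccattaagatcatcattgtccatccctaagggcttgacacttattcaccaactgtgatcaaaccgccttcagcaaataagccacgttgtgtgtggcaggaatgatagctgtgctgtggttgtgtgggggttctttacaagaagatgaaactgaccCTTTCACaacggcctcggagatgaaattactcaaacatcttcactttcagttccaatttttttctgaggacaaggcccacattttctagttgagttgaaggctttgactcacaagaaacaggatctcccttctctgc
The Blimp1 letters occurred in the windows of 3 of the 8 genes (Klrk1, Klra2 and Klra4) and in 22.6% of all 32851 promoter windows. The T-box letters occurred in none of the 8 and in 13.7% of all windows. These are matches of letters, and binding was not measured.

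Libraries held 27834676 to 43903859 counts on genes, and levels are given as CPM, counts relative to the TMM-scaled library size, where 3 counts equal 0.0644 to 0.112 CPM. Prdm1 counts ran over all its exons and overlapped between the genotypes in spleen. The libraries labelled KO had 90.7 and 75.1 CPM in TIL, against 108.4 and 192.1 in WT, and 40.7 and 53.4 CPM in spleen, against 54.1 and 21.0. Foxp3 was at 10.2 and 2.99 CPM in KO TIL, 25.5 and 60.5 in WT TIL and 43.1 to 69.6 in the splenic libraries, and Cd4 was at 147.8 and 66.2, 807.4 and 1086.3, and 383.9 to 1009.2 CPM. Transcripts of other cells were present in tumor libraries. The 2 CD8 genes summed to 406.0 and 2221.5 CPM in KO TIL, 148.0 and 48.3 in WT TIL and 15.0 to 30.7 in spleen. The 7 macrophage genes summed to 14517 and 1580 CPM in KO TIL, 2867 and 441.1 in WT TIL and 237.3 to 1503 in spleen, and the 9 genes of the NK cell list to 3065 and 2218, 888.8 and 198.4, and 109.0 to 775.7 CPM. The latter sum does not measure NK cells alone, because macrophages also express Tyrobp, Fcer1g and Fcgr3 (733.9, 1254.8 and 675.7 CPM in the first KO TIL library) and cytotoxic T cells Prf1 and Gzma (1308 and 335.7 CPM in the second). Ncr1, the defining NK cell marker, was at 13.4 and 1.53 CPM in KO TIL, 0.647 and 0.844 in WT TIL and 0 in every splenic library. In bulk libraries, more cells of a type and more RNA per cell cannot be told apart.

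In TIL eTreg cells, 9 of the 10 receptor genes were higher in both KO libraries than in both WT libraries, and Klrg1 was lower in both. Over all 15935 genes tested, 18.0% lay higher and 19.4% lower without overlap. Klrb1c, Klre1 and Klra4 entered the tested genes only through their KO counts. Their lying higher is thus not independent of the filter on low counts. The median log2 fold change of the 10 genes was 4.01, against 0.043 for all genes. None of the 10 passed edgeR's quasi-likelihood test (adjusted p under 0.05 and a fold change of more than 1 on the log2 scale, in either direction), and 0% of all genes did. At an unadjusted p under 0.05, edgeR's test had 8 of the 10 higher (6.34% of all genes) and 1 lower (3.53%). DESeq2's Wald test, adjusted over all genes, called 8 higher (3.48%) and 1 lower (1.20%), leaving out Klre1 (adjusted p = 0.305).

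**Figure D1:**
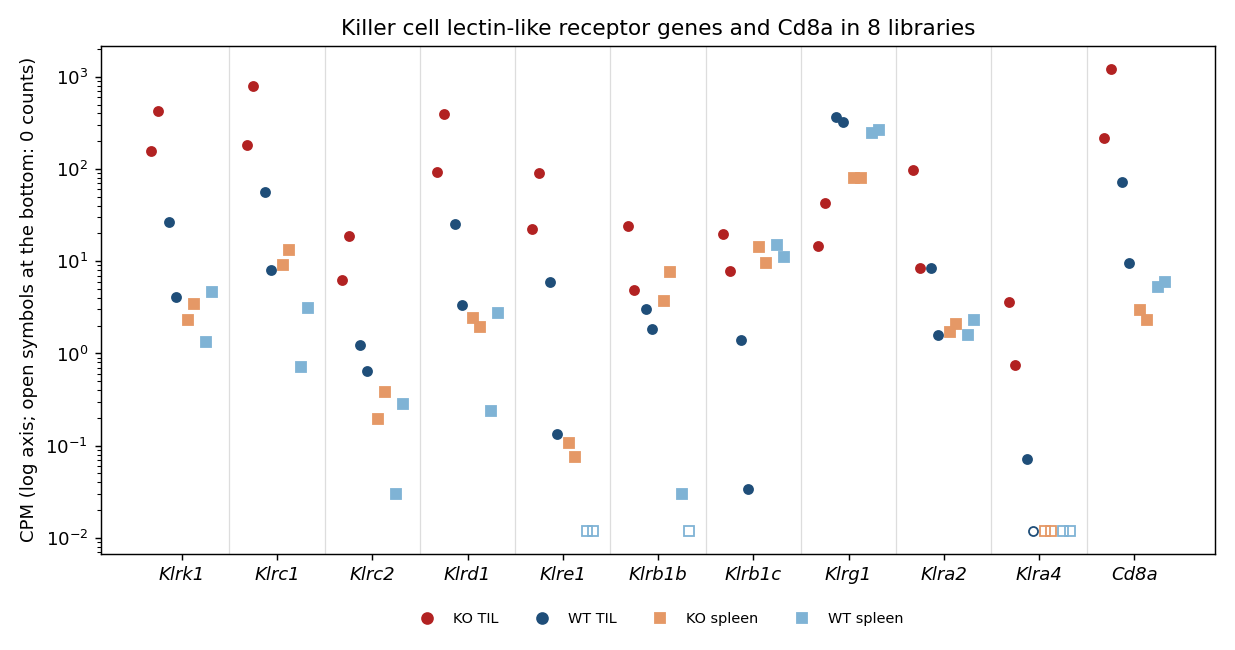
CPM of each receptor gene and of Cd8a in the 8 libraries, on a log axis, with 1 symbol per library coloured by group and open symbols at the bottom for 0 counts. The 9 receptor genes other than Klrg1 have both KO TIL libraries above both WT TIL libraries. Among the receptor genes tested in spleen, the groups lie apart there for Klrc1, Klrb1b and Klrg1. Cd8a is lower in both KO spleen libraries.

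The activating receptor gene Klrk1 (NKG2D) was at 155.7 and 423.5 CPM in KO TIL and at 26.8 and 4.08 CPM in WT TIL. Its log2 fold change was 4.23 (SE 1.06), with an adjusted p of 0.297 from edgeR's test and of 0.000138 from DESeq2's. Klrd1, the CD94 chain, was at 93.6 and 392.0 CPM in KO TIL and 25.2 and 3.38 in WT TIL, a log2 fold change of 4.09 (SE 1.20). The second KO library was the highest for both genes and the second WT library the lowest.

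Klrc1, the inhibitory partner of CD94, was at 182.7 and 791.9 CPM in KO TIL and at 55.7 and 8.07 in WT TIL, a log2 fold change of 3.94 (SE 1.18, edgeR's adjusted p = 0.374). Its activating counterpart Klrc2 was at 6.29 and 18.7 CPM against 1.22 and 0.641, a log2 fold change of 3.74 (SE 0.77). Per length, the inhibitory gene was far above the activating one, with Klrc1 at 92.1 and 399.1 RPKM and Klrc2 at 1.08 and 3.22 RPKM in KO TIL. Klre1 was at 22.1 and 90.3 CPM in KO TIL and 5.93 and 0.135 in WT TIL, a log2 fold change of 4.22 (SE 1.62), with a wide gap between the WT libraries. With 1 library left out it ran from 2.85 (without the second KO library) to 8.65 (without the first WT library), and the same libraries set the range of Klrc1 (2.499 to 5.91) and Klrd1 (2.69 to 6.16).

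The NKR-P1 and Ly49 genes among the 10, Klrb1b, Klrb1c, Klra2 and Klra4, were highest in the other KO library, the one with the larger macrophage and Ncr1 values. Klra3, Klra7 and Klrb1f, of the same families, were higher in the second KO library. Klrb1c (NK1.1) was at 19.8 and 7.74 CPM in KO TIL and at 1.40 and 0.034 in WT TIL, a log2 fold change of 4.26 (SE 1.44, edgeR's adjusted p = 0.437). Klrb1b was at 24.3 and 4.83 CPM against 3.05 and 1.82, a log2 fold change of 2.57 (SE 0.87). Without the first KO library, the log2 fold change of Klrb1b was 0.98, and without the first WT library that of Klrb1c was 8.49.

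Klra2 was at 97.5 and 8.42 CPM in KO TIL and at 8.41 and 1.59 in WT TIL. The second KO and the first WT library were thus nearly level, and the log2 fold change of 3.40 (SE 1.36) became 0.75 without the first KO library. Per 1000 CPM of the macrophage gene sum, Klra2 was at 6.72 and 5.33 CPM in KO TIL and 2.93 and 3.60 in WT TIL. In spleen the same ratio was 7.24 and 3.35 with KO and 4.50 and 1.54 with WT, and the genotypes overlapped. The part of macrophage transcripts in the result was not tested. Klra4 had 115 and 20 counts in KO TIL and 2 and 0 in WT TIL, a ratio of 66.6 per scaled count (95% counting interval 18.1 to 555.6).

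Klrg1 went the other way. It was at 14.5 and 43.1 CPM in KO TIL and at 370.1 and 324.0 CPM in WT TIL, so the groups were far apart and the WT libraries close together. The log2 fold change was -3.59 (SE 0.60), the smallest p among the 10 genes (unadjusted 0.00155, adjusted 0.207 from edgeR's test) and an adjusted p of 2.95e-06 from DESeq2's test. It is also the only gene of the 10 that edgeR called when all 8 libraries were fitted together. Cd4 and Foxp3 lay lower in both KO TIL libraries too. Cd4 was at 147.8 and 66.2 CPM in KO TIL and 807.4 and 1086.3 in WT TIL, and Foxp3 at 10.2 and 2.99 against 25.5 and 60.5. The part of a smaller share of Treg transcripts in the Klrg1 difference was not tested.

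In tumor, part of the family kept a near fixed proportion to Cd8a, the gene of the CD8 alpha chain, which was at 217.1 and 1214.2 CPM in KO TIL and at 71.8 and 9.69 in WT TIL. Cd8a spanned 125.4-fold over these 4 libraries. Per length (RPKM over RPKM), Klrc1 stood at 1.54 and 1.20 times Cd8a in KO TIL and at 1.42 and 1.53 times in WT TIL. Klrd1 stood at 1.22 and 0.917 times Cd8a in KO TIL and at 0.996 and 0.989 times in WT TIL. These ratios spanned 1.29-fold and 1.33-fold, with the genotypes overlapping.

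Klrc1 and Klrd1 were among 8 genes, 0.0502% of the 15934 others tested, whose ratio to Cd8a stayed within 2-fold over the 4 TIL libraries. The other 6, found after their values were seen, were Dapl1, Exph5, Gm44174, Smyd1 and the gamma T cell receptor genes Tcrg-C2 and Trgv2. The ratio of Klrk1 to Cd8a was 0.363 and 0.177 in KO TIL and 0.189 and 0.213 in WT TIL, a span of 2.06-fold. Spans were wider for Klrc2 (4.29-fold), Klre1 (7.31-fold), Klrb1c (26.2-fold), Klrb1b (47.3-fold) and Klra2 (64.8-fold). The ratio of Klrg1 to Cd8a was 0.172 and 0.091 in KO TIL and 13.3 and 86.0 in WT TIL. The part of CD8 transcripts in the TIL differences was not tested.

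**Figure D2:**
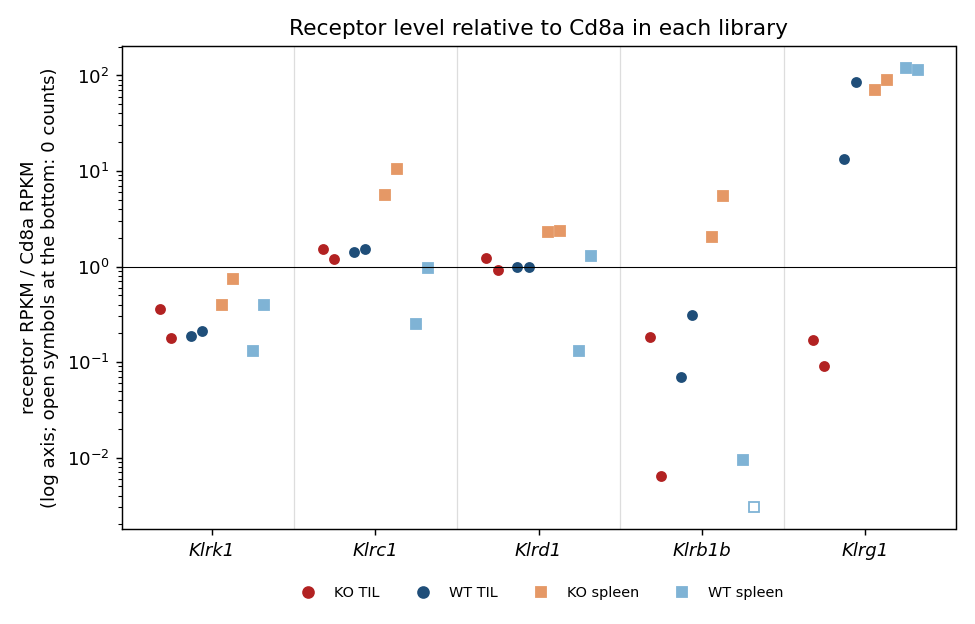
Ratio of receptor RPKM to Cd8a RPKM in each library, on a log axis, for Klrk1, Klrc1, Klrd1, Klrb1b and Klrg1, with colours for the groups, a line at 1 and an open symbol for 0 counts. The 4 TIL values of Klrc1 (1.20 to 1.54) and Klrd1 (0.917 to 1.22) lie together, while Klrc1 in KO spleen reaches 5.57 and 10.5.

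In spleen, Cd8a was at 2.96 and 2.33 CPM in KO and at 5.21 and 5.96 CPM in WT eTreg cells, so Cd8a was scarce and lower in the KO libraries. There, 3 receptor genes lay apart between genotypes among the 7 with enough counts to be tested, and each had the direction it had in tumor. Klrb1b and Klrc1 were higher in KO, and Klrg1 was lower. Klrb1b, with 1 and 0 counts in WT spleen, entered the 7 only through its KO counts. Its lying higher, and its place in the counts below, are thus not independent of the filter on low counts. The median log2 fold change of the 7 genes was -0.046, against -0.020 for all genes. Over all 16583 genes tested, 16.4% lay higher and 15.7% lower without overlap. With 7 genes, the number lying apart is not far from these shares, so by itself it is no result about the receptors. None of the 7 passed edgeR's test and 0% of all genes did. The same 3 genes had an unadjusted p under 0.05, 2 higher (1.53% of all genes) and 1 lower (1.42%). DESeq2's test also called these 3, 2 higher (0.372%) and 1 lower (0.0444%).

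Klrb1b, the inhibitory NKR-P1B gene, had 173 and 305 counts in KO spleen and 1 and 0 counts in WT spleen. These are 3.72 and 7.73 CPM against 0.030 and 0 CPM. The ratio was 341.4 per scaled count (95% counting interval 61.0 to 13513), and edgeR ranked the gene at position 8 by p (unadjusted p = 9.39e-05, adjusted p = 0.195). DESeq2's adjusted p was 3.87e-05.

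Klrc1 was at 9.001 and 13.3 CPM in KO spleen and at 0.719 and 3.10 CPM in WT spleen, with every KO value above every WT value. The log2 fold change was 2.54 (SE 0.72, 95% interval 0.82 to 4.26), with an adjusted p of 0.878 from edgeR's test and of 0.0199 from DESeq2's. It was 1.90 without the first and 3.95 without the second WT library. The ratio of Klrc1 to Cd8a, per length, was 5.57 and 10.5 in KO spleen and 0.253 and 0.955 in WT spleen. In KO spleen the ratio thus lay above all 4 TIL values.

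Klrg1 was at 80.7 and 80.4 CPM in KO spleen and at 243.0 and 264.0 CPM in WT spleen, with replicates close together on each side. The log2 fold change was -1.66 (SE 0.33, 95% interval -2.44 to -0.88), with an adjusted p of 0.781 from edgeR's test and of 0.0199 from DESeq2's. Leaving out any 1 library kept it between -1.65 and -1.59. Splenic Foxp3 was lower with KO too, where the libraries held 43.1 and 56.4 CPM against 69.6 and 58.1 with WT. Of 6 marker genes of CD4 T and Treg cells, 3 lay lower in KO spleen without overlap. Cd4 overlapped, with KO values of 1009.2 and 875.2 CPM against 891.4 and 383.9. Whether fewer Treg transcripts had a part in the splenic Klrg1 difference was not tested.

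The other 4 tested genes overlapped between the splenic genotypes. Klrk1 had 2.32 and 3.40 CPM in KO spleen, within the 1.35 and 4.67 CPM of WT spleen, a log2 fold change of -0.08 (95% interval -1.71 to 1.55). Klrd1 had 2.43 and 1.93 CPM in KO spleen, likewise within the 0.240 and 2.71 CPM of WT spleen, a log2 fold change of 0.56 (95% interval -1.77 to 2.89). The overlap of Klrd1 rested on the second WT library, without which its log2 fold change was 3.17. Its interval contains the value of its partner Klrc1, and the difference between the 2 genes was not tested.

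Klrb1c had 14.2 and 9.46 CPM in KO spleen and 15.1 and 11.2 in WT spleen, a log2 fold change of -0.16 (95% interval -1.10 to 0.78). NK1.1 transcript was thus present in every splenic library. All of these had Ncr1 at 0, but Itga2 at 6.32 to 13.4 CPM and Cd160 at 23.6 to 34.8 CPM. Klra2 had 1.72 and 2.08 CPM in KO spleen, between the WT values of 1.59 and 2.32, a log2 fold change of -0.05 (95% interval -1.34 to 1.25). The remaining 3 genes were too low to test. Klrc2 had 9 and 15 counts in KO and 1 and 8 in WT, Klre1 had 5 and 3 against 0 and 0 (at least 1.90-fold higher, against 3 counts over the WT group), and Klra4 had 0 in all 4 libraries.

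**Figure D3:**
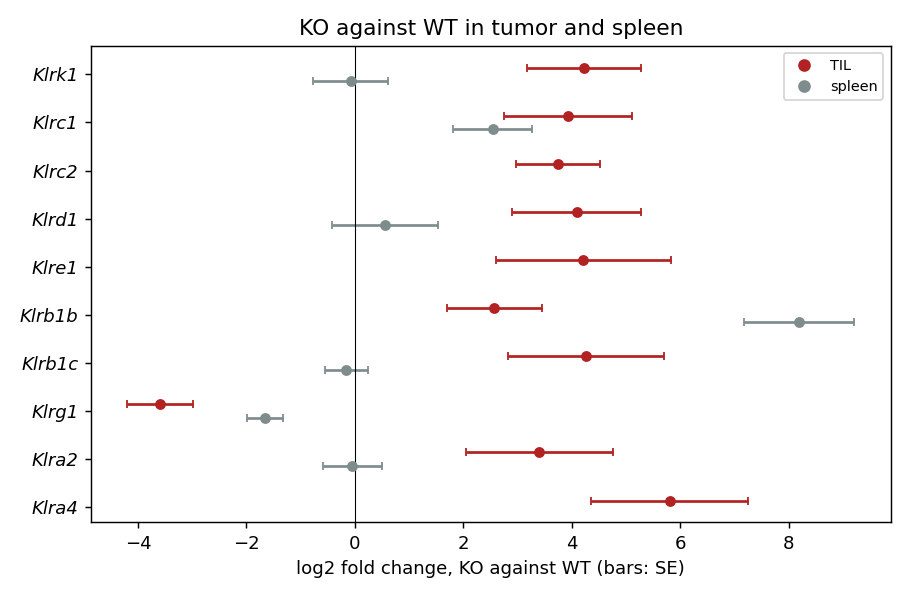
Log2 fold change of KO against WT for each receptor gene in TIL (red) and in spleen (grey), with bars of 1 SE from edgeR's fit on 4 libraries and 2 per genotype. In spleen only Klrc1, Klrb1b and Klrg1 lie more than 1 SE from 0, and Klrc2, Klre1 and Klra4 have no splenic value because they were not tested.

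Of 14787 genes tested in both tissues, 3.67% had both KO libraries above both WT libraries in each tissue and 3.58% below. Klrb1b and Klrc1 were among the first and Klrg1 among the second. Among splenic marker lists, 2 sums lay higher in both KO libraries, as Klrb1b and Klrc1 did. The gamma delta T cell genes summed to 20.3 and 25.4 CPM in KO spleen and 8.95 and 17.9 in WT spleen, and the NKT cell genes to 677.4 and 587.4 against 524.3 and 388.2, a sum made up mostly of Slamf6, which other T cells express too. The macrophage sum was 237.3 and 620.3 CPM in KO spleen and 352.9 and 1503 in WT spleen, the sum of the NK cell list was 109.0 and 197.6 against 132.7 and 775.7, and both overlapped. Of the 4 gamma delta T cell genes tested, only Tcrg-C1 lay apart. It was at 12.6 and 16.9 CPM in KO spleen and at 2.37 and 4.82 in WT spleen. Trdc was at 4.32 and 4.89 CPM against 4.61 and 3.57, and Tcrg-C2 at 2.51 and 2.10 against 1.11 and 3.64. Tcrg-C4 was at 0.902 and 1.27 CPM against 0.868 and 5.89. The median log2 fold change of these 4 genes was 0.060. The part of marker list transcripts in the results was not tested.

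The genotype difference was compared between tissues by an interaction term over 8 libraries. Of the 10 genes, 0 passed edgeR's test, as did 0% of 17870 genes. At an unadjusted p under 0.05, 3 genes had a larger KO to WT ratio in tumor (5.08% of all genes), and 2 a smaller one (2.75%). The 3 were Klrk1 (log2 difference 4.30, SE 1.28), Klrb1c (4.42, SE 1.45) and Klra2 (3.45, SE 1.49). The 2 were Klrb1b and Klrg1 (-1.94, SE 0.66). DESeq2's test called Klrk1 (adjusted p = 0.0155) and Klrb1c (adjusted p = 0.0313) among the 1.27% of genes with a larger ratio in tumor. For Klrc1 the log2 difference was 1.38 with a 95% interval of -1.81 to 4.57, so a difference between tissues was not detectable.

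Between tissues, the WT and KO libraries shared no sample and are given side by side. In WT eTreg cells, 2 of 8 tested receptor genes were higher in TIL than in spleen by edgeR's test, Klrb1b (adjusted p = 0.00889) and Klrc1 (log2 fold change 4.06, SE 0.98, adjusted p = 0.0370), where 5.97% of all genes were called. Klrb1b had 85 and 54 counts in WT TIL against 1 and 0 in WT spleen, a ratio of 148.6 per scaled count (95% counting interval 26.2 to 5911). It entered the tested genes only through its TIL counts. Klrb1c lay the other way, at 1.40 and 0.034 CPM in TIL and 15.1 and 11.2 in spleen (log2 fold change -4.19, SE 1.11, edgeR's adjusted p = 0.0546). Klrg1 was at a high level in both tissues of WT mice, with a log2 fold change of 0.45 (SE 0.43) from spleen to TIL.

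In KO eTreg cells, edgeR's test called 2 of 10 receptor genes higher in TIL, Klrk1 (log2 fold change 6.66, SE 0.66, adjusted p = 0.0374) and Klre1 (9.19, SE 1.01, adjusted p = 0.0431), where 1.35% of all genes were called. Klre1 had 697 and 2415 counts in KO TIL against 5 and 3 in KO spleen, near the 3-count floor. It entered the tested genes only through its TIL counts. Klrd1 came next at 6.79 (SE 0.86, edgeR's adjusted p = 0.0501). Klrb1b (1.38, SE 0.89) and Klrb1c (0.25, SE 0.56) overlapped between the tissues. Klra4 was at least 66.5-fold higher in TIL, against 3 counts over the KO spleen group.

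**Figure D4:**
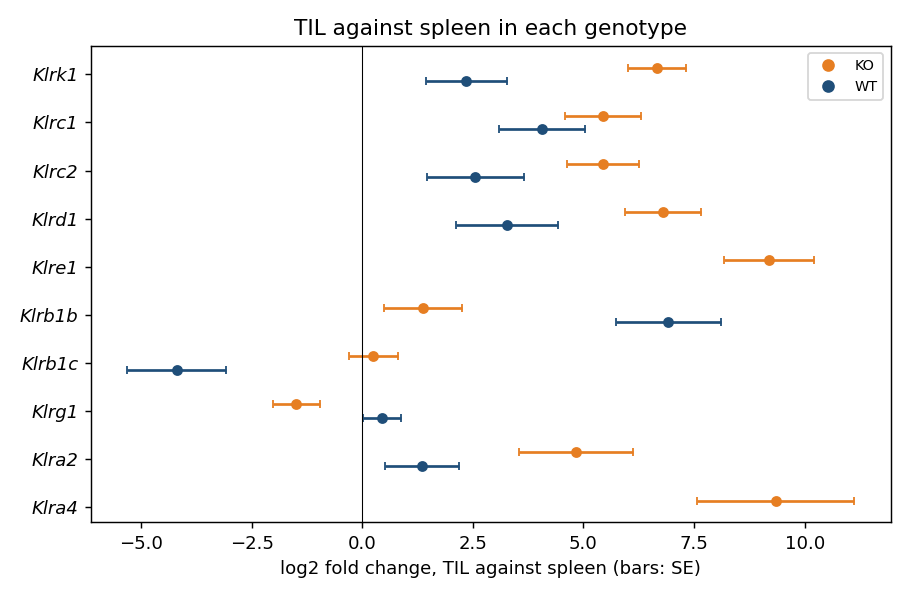
Log2 fold change of TIL against spleen for each receptor gene in KO (orange) and WT (blue) eTreg cells, with bars of 1 SE from edgeR's fit on 4 libraries each. Klrb1b is far higher in TIL in WT, where its splenic libraries had 1 and 0 counts, and Klrb1c lies below 0 in WT (-4.19) and near 0 in KO (0.25).

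The order of the receptors per length (mean RPKM of 2 libraries) differed by group. In WT TIL, Klrg1 led at 245.4 ± 23.1 RPKM (SD, n = 2), above Klrc1 at 16.1 ± 17.0 and Klrd1 at 11.1 ± 12.0, and among the first 9 genes only the step from Klrg1 to Klrc1 exceeded the spread between libraries. In KO TIL, Klrc1 (245.6 ± 217.1) and Klrd1 (189.5 ± 164.7) came first with overlapping libraries, then Klrk1 (40.3 ± 26.4) and Klra2 (27.9 ± 33.2), and Klrg1 was in the fifth place at 20.4 ± 14.3 RPKM. Only Klrd1 and Klrk1 were neighbours whose libraries did not overlap. Their order depends on the exonic lengths used, 1281 and 7183 bases. By CPM, Klrk1 (155.7 and 423.5) lay above Klrd1 (93.6 and 392.0) in each KO TIL library.

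In spleen, Klrg1 led in both genotypes, at 179.3 ± 10.5 RPKM in WT and 57.0 ± 0.145 in KO. In KO spleen it was followed by Klrc1 (5.62 ± 1.54), Klrb1c (3.99 ± 1.12), Klrb1b (2.57 ± 1.27) and Klrd1 (1.70 ± 0.276), and each of these 4 overlapped its neighbour among them, while Klra2 followed apart at 1.0004 ± 0.134. In WT spleen the second gene was Klrb1c (4.45 ± 0.920), apart from Klrd1 (1.15 ± 1.36), and Klrb1b was at 0.0067 ± 0.0095 RPKM.

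The other 20 Klr genes were low, and those with the highest mean were Klrb1f, Klri2 and Klra3. In TIL, 13 were tested, all 13 had a positive log2 fold change in KO (median 3.16), 9 had an unadjusted p under 0.05 (6.34% of all genes, higher in KO), none passed edgeR's adjusted test and 6 passed DESeq2's (3.48%). Klrb1f, an NKR-P1 gene, was at 8.41 and 9.99 CPM in KO TIL and 1.83 and 2.06 in WT TIL, and at 19.5 and 11.8 CPM in KO spleen and 5.0004 and 5.21 in WT spleen. Its log2 fold change was 2.24 (SE 0.47) in TIL and 1.61 (SE 0.42) in spleen, so it lay apart in both tissues as Klrb1b did. Klri2, whose product pairs with that of Klre1, was at 23.3 and 35.6 CPM in KO TIL and 3.05 and 0.506 in WT TIL, with at most 0.279 CPM in spleen. Klra3 was at 11.02 and 21.5 CPM in KO TIL, 2.19 and 1.18 in WT TIL and at most 0.321 CPM in spleen. In spleen 3 of the 20 were tested, Klrb1f alone having an unadjusted p under 0.05 (1.53% of all genes, higher in KO).

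Among 16 adaptor and signalling genes, 4 were higher in KO TIL and none lower at an unadjusted p under 0.05 (6.34% and 3.53% of all genes), and in spleen none was. Their median log2 fold change was 0.76 in TIL and -0.0013 in spleen. Hcst, the DAP10 adaptor of NKG2D, was at 62.9 and 173.4 CPM in KO TIL and at 107.3 and 213.6 in WT TIL, so it did not follow Klrk1. Tyrobp (DAP12) was at 733.9 and 125.8 CPM in KO TIL and 164.9 and 40.1 in WT TIL, highest in the library with the most macrophage transcripts. Splenic Tyrobp had 21.8 and 48.2 CPM with KO and 28.3 and 281.6 with WT, and Fcer1g 25.0 and 68.3 against 45.7 and 374.2, with the second WT library apart. Grb2, an adaptor downstream of DAP10, was at 237.1 and 149.6 CPM in KO TIL and 78.4 and 48.4 in WT TIL (log2 fold change 1.61, SE 0.40).

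Of 17 ligand genes, 14 were tested in TIL and 1, Cdh1, was higher in KO at an unadjusted p under 0.05, with a median log2 fold change of -0.28. This share is near that of all genes (6.34%), so it is no result about the ligands. Cdh1 encodes E-cadherin, a ligand of KLRG1, and was at 22.9 and 23.9 CPM in KO TIL and 6.29 and 5.27 in WT TIL (log2 fold change 2.01, SE 0.37, edgeR's adjusted p = 0.225), the opposite direction to Klrg1. H2-T23, the ligand of the CD94 and NKG2 pairs, was at 797.1 and 850.1 CPM in KO TIL and 975.1 and 1364.3 in WT TIL (log2 fold change -0.51, SE 0.34). In spleen, 10 were tested and 1 was lower in KO (1.42% of all genes), Clec2d, the ligand of NKR-P1B, at 3.03 and 2.64 CPM against 4.52 and 9.60 (log2 fold change -1.32, SE 0.53, unadjusted p = 0.0417 and adjusted p = 0.878 from edgeR's test).

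Of 12 transcription factor genes, 11 were tested in TIL, where 3 were higher and 2 lower at an unadjusted p under 0.05 (6.34% and 3.53% of all genes), with a median log2 fold change of 0.057. Eomes, a T-box factor of NK and memory CD8 T cells, was at 18.4 and 60.9 CPM in KO TIL and 2.95 and 1.22 in WT TIL (log2 fold change 4.25, SE 0.82). The related Tbx21 was at 101.4 and 331.0 CPM in KO TIL and 219.6 and 195.6 in WT TIL, and overlapped. Ikzf2 (Helios) was lower in KO TIL, at 64.0 and 44.3 CPM against 295.8 and 516.6 (log2 fold change -2.91, SE 0.43). In spleen 1 of 12, Ikzf2, was lower at an unadjusted p under 0.05 (1.42% of all genes), at 278.8 and 334.1 CPM against 468.1 and 683.7.

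As a description over the 8 libraries, which share tissue and genotype, the genes whose log2 CPM followed Klrk1 most closely among 17860 were Cd244 (Pearson's r = 0.99), Gzma (0.99) and Klra6 (0.98). The r of Klrk1 was 0.97 with Cd8a, -0.96 with Foxp3 and -0.89 with Cd4. For Klrg1 the closest genes were Gm6637 (0.99), Tnfrsf4 (0.97) and Hemk1 (0.96). Tnfrsf4, which encodes OX40, was at 200.3 and 310.6 CPM in KO TIL, 1735 and 2290 in WT TIL, 680.2 and 699.5 in KO spleen and 974.3 and 1390 in WT spleen, the same order of the 4 groups as for Klrg1.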

How the data were processed

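The deposited files hold raw counts per gene for 8 libraries, which the authors made, per the submitters' processing notes, with Trimmomatic 0.36, STAR 2.5.2b on GRCm38 and featureCounts of Subread 1.5.2. Whether counting used strand is not given in the sources used here. A table of normalized counts was not used. RNA came from ultra-low input preparation with rRNA removal and random hexamers, sequenced as 2 x 150 bp.

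Each comparison was fitted on its 4 libraries, and the interaction on 8, with edgeR 4.0.16's quasi-likelihood test in R 4.3.3 (filterByExpr, TMM, Benjamini-Hochberg adjustment over all genes tested). A gene was called where the adjusted p was under 0.05 and the log2 fold change was above 1 or below -1. An SE is the absolute log2 fold change over the square root of F. DESeq2 1.42.0's Wald test, other scaling, filters, thinning, a replicate block and leaving out each library were alternatives. RPKM divides CPM by exonic length in kb. Counting intervals (exact binomial, 95%) and the 3-count floor cover counting error only, since PCR reads are not independent molecules. Likeness used log2 CPM with a prior count of 2, and coding sequences were aligned with Biopython 1.88. The scripts were tested on simulated data.

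Replicates of each group differed by more than sampling noise (37.2 to 344.4 as chi-square over its degrees of freedom). Members and gene lists were chosen with earlier results of these data known. All 10 members are described, with the 3 other Klr genes of highest mean CPM, preset partner genes and, per list and genotype comparison, the gene with the smallest p.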

Additional observations from a re-analysis of the deposited data

How the results depend on the processing

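The number of the 10 receptor genes called depended strongly on the test, since 0 were called in either genotype comparison. With DESeq2's Wald test, 9 were called in TIL, 3 in spleen, 4 between tissues in WT, 7 in KO and 2 for the interaction, beside 761, 75, 1805, 3813 and 307 of all genes. With no filter on low counts the numbers were 10, 3, 6, 7 and 6 (1072, 167, 1922, 3183 and 752 of all genes), and at an unadjusted p they were 9, 3, 6, 8 and 5 (1447, 450, 3346, 4317 and 1395). With all 8 libraries in the fit, 1 was called in TIL, 1 between tissues in WT and 7 in KO (135, 671 and 1743 of all genes), and with a mean of at least 50 counts 1 in WT (672). DESeq2's size factors, thinning and a log2 fold change over 2 left every number within 1.5 times.

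Leaving out 1 library gave 1 to 3 calls in spleen, 0 to 6 between tissues in WT and 0 to 9 in KO, where 21 to 3972, 213 to 1401 and 0 to 4958 of all genes were called. In spleen, 3 were called without the first WT library, beside 3972 of all genes, and without the second, beside 47. In WT the 0 came without the second splenic and the 6 without the second TIL library, and in KO the 0 came without either splenic library and the 9 without the second TIL library. Such a fit leaves 1 library in a group, which is assumed to vary like the others.

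Log2 fold changes near 0 changed sign. In spleen, Klrk1 was at 0.00998 with no filter and -0.65 to 1.09 with a library left out, Klrd1 at -0.26 to 3.17, and Klrb1c at -0.46 to 0.13. Klra2 was at 0.025 with no filter, 0.047 after thinning and -0.23 to 0.26 with a library left out. Between tissues with a library left out, Klra2 in WT was at -0.28 to 2.14, and in KO Klrb1b at -0.25 to 2.13 and Klrb1c at -0.61 to 0.79. For the interaction with a library left out, Klrc1 was at -0.013 to 3.41 and Klre1 at -1.83 to 3.997, and Klre1 was at 0.26 in DESeq2's test. The cause was not tested.

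Replicate numbers name libraries only, with deviations of same-numbered libraries correlating at 0.155 between the splenic and 0.234 between the TIL genotypes. With the replicate block, 6 receptor genes were called in TIL, 2 in spleen, 3 between tissues in WT and 4 in KO (728, 101, 1463 and 192 of all genes), Klrk1 was at 0.14 in spleen, and Klre1 at 0.19 for the interaction. Between tissues in KO the correlation was -0.22, and a crossed pairing, chosen after seeing the data, called 2934 genes, 8 of them receptor genes.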
